A study of Mus musculus with 10 samples.

Results

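The genes described here encode secreted protease inhibitors built on the whey acidic protein (WAP) domain. The group was named as Wfdc15b, Wfdc2, Wfdc1, Wfdc3, Wfdc15a and Slpi, and a gene's value was taken only from an array row that names that gene alone. By this rule 5 of the 6 genes were measured, among 30702 genes in all, each by 1 row. The row that lists Slpi also lists a microRNA gene, so Slpi has no value here. The group was selected on the measured log2 differences between knockout and control kidneys, so those differences are given for its members as a description without a test.

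RNA of whole kidneys was measured on Affymetrix whole-transcript arrays in 5 mice that lacked Lkb1, the kinase encoded by Stk11, in their kidney tubules and in 5 controls, all 5 weeks old, with 1 array for each mouse. The knockouts carried a floxed Lkb1 allele (Stk11tm1.1Sjm, mixed genetic background) together with the KspCre transgene (Tg(Cdh16-cre)91lgr, C57Bl/6N background), in which the Cdh16 promoter, active in tubule epithelium, drives Cre. The controls, littermates of genotype Lkb1flox/+ or Lkb1flox/flox, did not carry the transgene, so Cre and the loss of Lkb1 cannot be told apart, and a floxed allele is shared by both groups. The titles call the first group a knockdown and the strain label of all mice is C57Bl/6N, while the protocol describes a knockout from a cross of mixed background, and the design text names MDCK cells although every sample is mouse kidney.

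The WAP domain is a short fold held together by disulfide bonds between conserved cysteines. Many proteins with this fold block serine proteases, and several also act against bacteria at epithelial surfaces. Slpi, the best known of them, blocks neutrophil elastase and cathepsin G. Wfdc2 encodes a secreted epithelial protein, known in humans as HE4, that has been studied as a marker of ovarian cancer and, in mice, as an inhibitor of matrix-degrading proteases in kidney fibrosis. Wfdc15b encodes a protein with a single WAP domain that is known in the mouse as an antibacterial protein. Most genes of the family lie together on mouse chromosome 2.

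Wfdc15b and Wfdc2 differed in opposite directions between the groups, while Wfdc15a, the neighbour of Wfdc15b, had a signal below most negative controls. The 250 bases before the RefSeq start of these genes (GRCm38.p6) are shown to set the promoter of the gene that was lower in knockout kidneys, Wfdc15b (chr2:164221664-164221913, minus strand), beside that of its dim neighbour Wfdc15a (chr2:164200118-164200367, minus strand) and that of Wfdc2, which was higher (chr2:164562465-164562714, plus strand). Wfdc2 has 2 promoter entries, and only the first is shown and searched. Capitals mark the motifs found.
Wfdc15b: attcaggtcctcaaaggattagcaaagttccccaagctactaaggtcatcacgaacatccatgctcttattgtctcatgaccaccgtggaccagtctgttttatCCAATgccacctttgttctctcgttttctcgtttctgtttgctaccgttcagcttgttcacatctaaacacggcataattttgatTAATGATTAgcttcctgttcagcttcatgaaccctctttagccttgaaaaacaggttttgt
Wfdc15a: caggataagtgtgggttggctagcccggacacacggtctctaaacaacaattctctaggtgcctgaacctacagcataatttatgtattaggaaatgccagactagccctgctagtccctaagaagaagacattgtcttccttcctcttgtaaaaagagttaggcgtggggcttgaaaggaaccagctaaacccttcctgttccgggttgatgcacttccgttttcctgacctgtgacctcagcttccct
Wfdc2: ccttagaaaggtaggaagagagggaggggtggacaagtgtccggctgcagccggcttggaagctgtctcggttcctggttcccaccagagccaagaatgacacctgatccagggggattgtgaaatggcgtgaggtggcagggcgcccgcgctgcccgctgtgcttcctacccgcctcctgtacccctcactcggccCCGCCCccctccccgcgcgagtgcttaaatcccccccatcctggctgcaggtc

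The motifs were settled after the sequences had been read. The shares of windows given below are therefore background, not the chance of a hit in these genes. Both strands were searched for TAATNATTA, the core of sites bound by HNF1 factors of kidney epithelium, for the TATA box TATAAA, for the GC box in its form GGGCGG, for the CCAAT box and for TGACGTCA, the site of CREB. No pair of marked motifs overlapped. The Wfdc15b window holds TAATNATTA 61 to 53 bases before the start, a motif found in 0.587% of 32536 distinct windows of the same length, and CCAAT 146 to 142 bases before it, found in 33.8%. The Wfdc2 window holds GGGCGG on the opposite strand 53 to 48 bases before the start, found in 33.0% of windows. None of the 5 motifs is in the Wfdc15a window, and neither TATAAA (12.3% of windows) nor TGACGTCA (1.56%) is in any of the 3. The Wfdc3 window, not shown, was also searched and holds none of the 5. The GC content is 41.6% for Wfdc15b, 48% for Wfdc15a and 64.8% for Wfdc2, against a median of 52.4% over all windows. A matching run of letters describes the sequence and does not show binding.

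The arrays resembled each other over all rows, with correlations from 0.987 to 0.995, and the 5222 negative control probe sets had array medians of 5.10 to 5.37 on the log2 scale. Stk11, the targeted gene (chromosome 10, 80115767 to 80130679), measured 9.12, 9.21, 9.07, 9.21 and 9.31 in knockouts 1 to 5, against 9.43, 9.40, 9.48, 9.46 and 9.40 in controls 1 to 5. The groups did not overlap, and the difference in log2 units was -0.25 (SE 0.05, limma adjusted p = 0.00762). Its row covers the whole transcript, and the RNA comes from the whole kidney, so deleted exons and tubule cells were not measured apart. Cdh16, whose promoter drives Cre, differed by -0.06 (SE 0.04, limma adjusted p = 0.418). Over all genes, 1605 were higher and 822 lower in the knockouts at an adjusted p under 0.05, so 66.1% of the calls were increases. That share depended on the scaling and on the kidneys included. It was 83.1% with each array centred on its median (2061 higher, 419 lower) and 56.3% with quantile normalization (1631 higher, 1268 lower). Without knockout 5 it was 56.9% (1939 higher, 1471 lower). The other fits that left out 1 kidney gave 64.7% (without control 2) to 72.3% (without knockout 3).

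Wfdc15b (chromosome 2, 164214454 to 164221663, mm10) was much lower in every knockout kidney. It measured 9.77, 9.95, 9.58, 10.17 and 10.37 in knockouts 1 to 5, against 11.34, 11.42, 11.51, 11.55 and 11.25 in controls 1 to 5, as log2 expression values. The highest knockout lay below the lowest control, and the knockouts were also more spread out. The means were 9.97 ± 0.32 in knockouts and 11.41 ± 0.12 in controls (SD, n = 5 each), so that the log2 difference was -1.45 (SE 0.13, 95% interval -1.72 to -1.17). The knockout level was thus 36.7% of the control level (95% interval 30.4% to 44.4%), which was the 3rd lowest difference among the 30702 genes. The signal was far above background in both groups, above 98.8% of the negative control probe sets in knockouts and 99.4% in controls. In RNA of a whole kidney, fewer cells of a type and less RNA per cell cannot be told apart.

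Wfdc2 (chromosome 2, 164562715 to 164568510) was moderately higher. It measured 9.15, 9.22, 9.28, 9.06 and 9.05 in knockouts 1 to 5, against 8.77, 8.62, 8.79, 8.82 and 8.71 in controls 1 to 5. Every knockout lay above every control. The means were 9.15 ± 0.10 in knockouts and 8.74 ± 0.08 in controls (SD, n = 5 each), so that the log2 difference was 0.41 (SE 0.05), or 1.33-fold (95% interval 1.22 to 1.44). It had the 643rd highest difference of all genes.

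Wfdc1, which encodes a secreted protein first studied as a growth suppressor of prostate stroma, lies apart from the others on chromosome 8 (119666365 to 119688020). It measured 6.61, 6.61, 6.65, 6.54 and 6.49 in knockouts 1 to 5, against 6.63, 6.55, 6.59, 6.51 and 6.34 in controls 1 to 5. The groups overlapped, and control 5 was the lowest of the 10 kidneys. The log2 difference was 0.06 (SE 0.06), and its 95% interval of -0.07 to 0.18 corresponds to 0.954-fold to 1.13-fold. Its signal was above 80.6% of the negative control probe sets in knockouts and 79.1% in controls. The 95th percentile of those probe sets was 7.94 to 8.07 over the arrays, so Wfdc1 lay within their spread. A lack of change is therefore not shown by these values.

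The remaining pair, Wfdc3 and Wfdc15a, had signals below the negative control median. Wfdc3 (chromosome 2, 164731226 to 164745994) measured 4.98, 4.74, 4.88, 4.90 and 4.90 in knockouts 1 to 5, against 5.05, 4.78, 5.01, 4.96 and 4.95 in controls 1 to 5. Wfdc15a (chromosome 2, 164198872 to 164200117) measured 4.60, 4.51, 4.64, 4.63 and 4.71 in knockouts 1 to 5, against 4.59, 4.71, 4.85, 4.81 and 4.77 in controls 1 to 5. For both genes all 10 values lay below the negative control median of the same array, and the groups overlapped. Their means were above 42.2% (Wfdc3) and 35.9% (Wfdc15a) of those probe sets in knockouts and 43.6% and 38.3% in controls. Their log2 differences were -0.07 (SE 0.06) for Wfdc3 and -0.13 (SE 0.06) for Wfdc15a, and no fold is given for either.

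**Figure D1:**
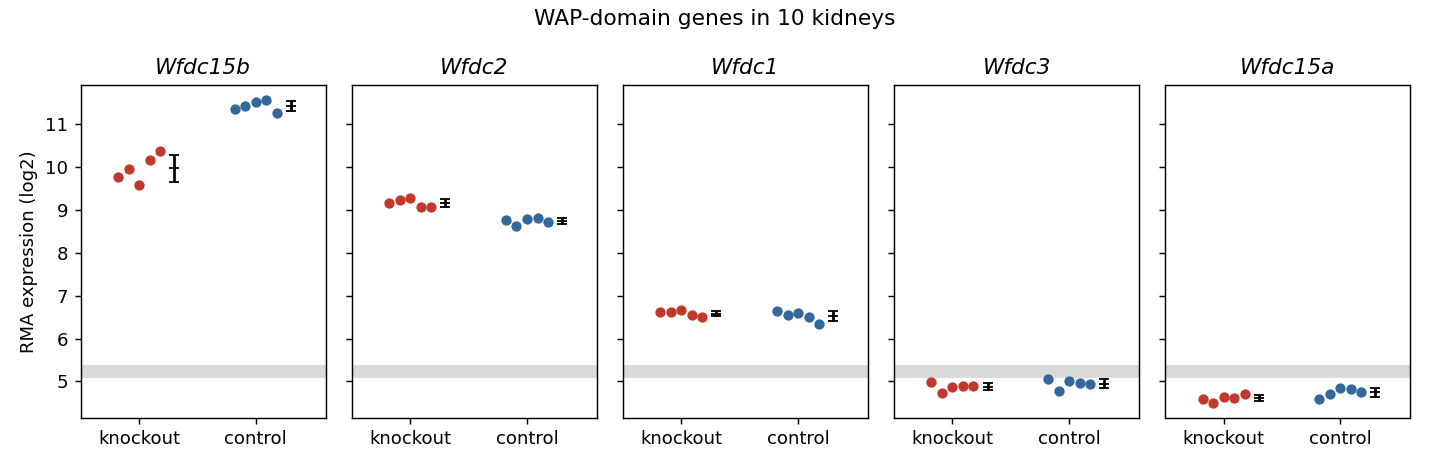
Log2 RMA expression values of the 5 measured WAP-domain genes, with knockouts (red) left of controls (blue), 1 point per kidney, and the mean with its SD in black. The grey band spans the array medians of the negative control probe sets (5.10 to 5.37); Wfdc15b is lower in the knockouts, Wfdc2 is higher, and Wfdc3 and Wfdc15a lie below the band.

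Of the 5 measured genes, 1 was lower and 1 higher at an adjusted p under 0.05 and 3 did not pass, where 7.91% of all genes passed in either direction (5.23% higher, 2.68% lower). The same 2 genes, Wfdc15b and Wfdc2, had groups that did not overlap, as had 8.50% of all genes (5.00% higher, 3.49% lower in knockouts). The genes were chosen with this contrast known, so nothing is read from these counts. The median log2 difference of the 5 genes was -0.07, beside -0.03 over all genes.

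Along the WAP gene cluster of chromosome 2, Wfdc15b and Wfdc2 lay among genes that mostly did not pass, many of them dim. The window from 5 genes before Wfdc5 to 5 genes after Wfdc3 (164024770 to 164793810) holds 49 annotated genes, of which 45 were measured and 3 (6.67%) passed the threshold, beside 7.91% of all genes. Wfdc15b and Wfdc2 are among these 3 and were chosen on this contrast, so nothing is read from that share. Of the 41 measured genes that are not members, 1 passed. Of those 41, 18 had both group means below the negative control median, where a fall could be hidden by background. The genes next to Wfdc15b, Wfdc15a and the seminal vesicle protein gene Svs2, are as dim. Svs2 had means of 3.56 in knockouts and 3.70 in controls. The log2 differences were -0.129 (95% interval -0.255 to -0.003) for Wfdc15a and -0.139 (95% interval -0.252 to -0.027) for Svs2. Both intervals held only falls, but neither gene passed (limma adjusted p = 0.206 and 0.128). Along the chromosome, 14336 bases lie between Wfdc15a and Wfdc15b. Besides Wfdc15b and Wfdc2, the gene that passed was Gm11456, an annotated pseudogene at 164642910 to 164643233 between Wfdc16 and Wfdc9. Gm11456 had means of 6.00 in knockouts and 5.66 in controls, a log2 difference of 0.33 (SE 0.06, limma adjusted p = 0.00753). The log2 differences of the measured genes that are neither members nor past the threshold lay between -0.17 (Sdc4, which encodes a cell surface proteoglycan) and 0.17 (Ube2c, a ubiquitin-conjugating enzyme of mitosis).

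**Figure D2:**
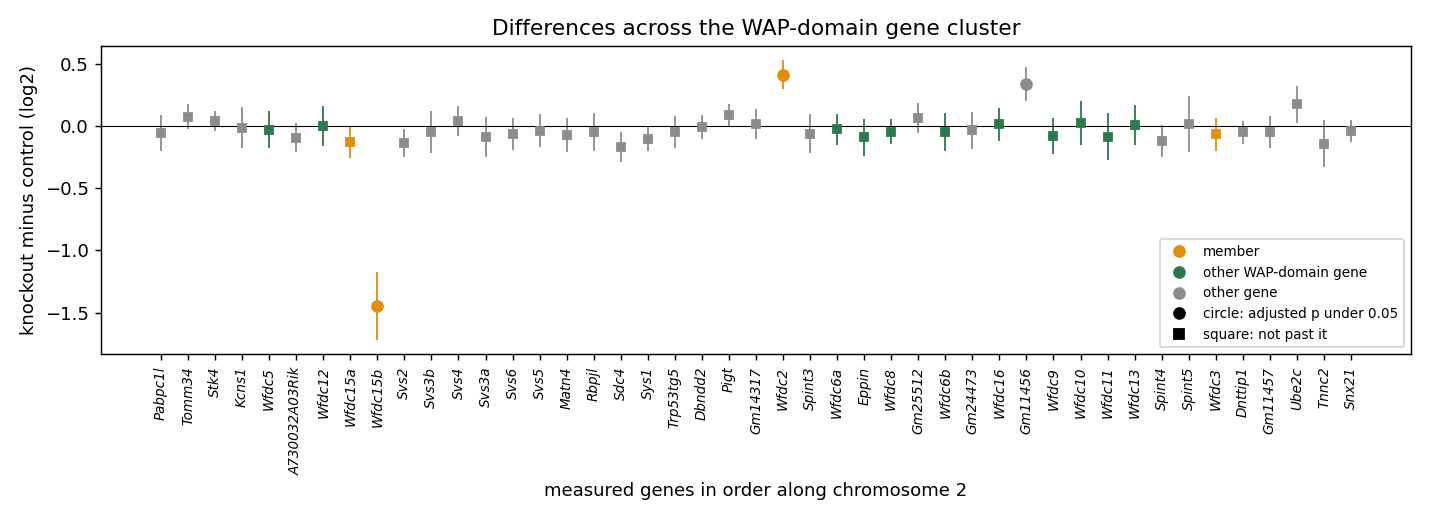
Log2 difference, knockout minus control, with its 95% interval for the 45 measured genes of the chromosome 2 window, in their order along the chromosome. Circles passed an adjusted p of 0.05 and squares did not; the circles are Wfdc15b at -1.45, Wfdc2 at 0.41 and Gm11456 at 0.33.

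Of the 18 other WAP-domain genes, 1 was higher, 0 were lower and 17 did not pass (5.56% passed, where 7.91% of all genes did), with a median log2 difference of -0.05 beside -0.03 over all genes, and 9 of the 18 had both group means below the negative control median. The gene that passed was Wfdc17, a WAP gene of chromosome 11 known in the mouse from activated microglia and macrophages. It measured 5.01 to 5.39 in knockouts and 4.76 to 5.07 in controls, so the groups overlapped, and its log2 difference was 0.33 (SE 0.08, limma adjusted p = 0.0342). Both group means lay below the negative control median, so no fold is given. The call was lost in 6 of 10 fits that left out 1 kidney, those without control 2, 3 or 4 or knockout 1, 2 or 3 (limma adjusted p from 0.0693 to 0.0866).

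Among 18 genes of proteins with Kunitz or Kazal inhibitor domains, 2 were higher, 0 were lower and 16 did not pass (11.1% passed, beside 7.91% of all genes), with a median log2 difference of -0.04. Spink8, a Kazal-type inhibitor gene, measured 7.45 to 8.85 in knockouts and 7.18 to 7.42 in controls, and the groups did not overlap. It was 2.09-fold higher (log2 difference 1.06, SE 0.22, limma adjusted p = 0.0106). Spink12 measured 4.38 to 5.29 in knockouts and 4.07 to 4.29 in controls, with both means below the negative control median (log2 difference 0.53, SE 0.14, limma adjusted p = 0.0371). Its call was lost in 7 of 10 fits that left out 1 kidney, those without any 1 of the controls or without knockout 2 or 3 (limma adjusted p from 0.0547 to 0.0817). Spint1 and Spint2, which encode membrane-bound Kunitz inhibitors of epithelial proteases, had log2 differences of -0.01 and 0.17 and did not pass.

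Of 24 serine protease genes, 2 were higher, 0 were lower and 22 did not pass (8.33% passed, beside 7.91% of all genes), with a median log2 difference of -0.02. Htra3 and Htra4, which encode secreted proteases of the HtrA family, were 1.23-fold (log2 difference 0.30, SE 0.07, limma adjusted p = 0.0201) and 1.22-fold higher (log2 difference 0.29, SE 0.07, limma adjusted p = 0.0319). The call of Htra3 was lost without control 1, knockout 1 or knockout 3 (limma adjusted p from 0.0506 to 0.0519), and that of Htra4 without control 1, 2 or 3 or knockout 1, 2 or 3 (from 0.0547 to 0.0843). The neutrophil proteases Elane and Ctsg, targets of Slpi, had both means below the negative control median, at 5.10 and 4.11 in knockouts and 5.21 and 4.24 in controls. Prss35 and Prss22, the proteases linked to Wfdc2 in mouse kidney fibrosis, differed by -0.09 (SE 0.06) and -0.11 (SE 0.04) in log2 units and did not pass (limma adjusted p = 0.406 and 0.155). Prss8, a channel-activating protease of tubule epithelium, differed by 0.00 (SE 0.07).

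**Figure D3:**
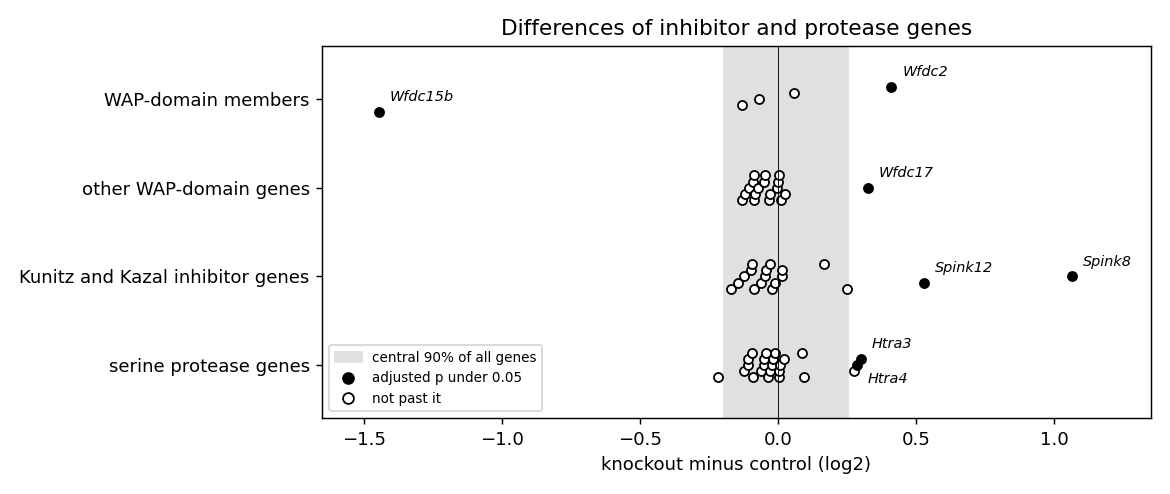
Log2 difference, knockout minus control, of each measured gene in 4 groups, with filled points for an adjusted p under 0.05. The grey band holds the central part of all genes, from the 5th percentile (-0.19) to the 95th (0.25); Wfdc15b, at -1.45, and Spink8, at 1.06, lie farthest from it.

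The knockout kidneys differed among themselves in Wfdc15b, Stk11 and Wfdc2. Knockout 3 had 28.0% of the mean control level of Wfdc15b, knockout 1 had 31.9%, knockout 2 had 36.3%, knockout 4 had 42.2% and knockout 5 had 48.7%. Stk11 was lowest in knockout 3 (9.07) and next lowest in knockout 1 (9.12). Knockouts 2 and 4 were alike (both 9.21), and Stk11 was highest in knockout 5 (9.31). Wfdc2 was highest in knockout 3, at 1.45-fold of the control mean, followed by knockout 2 (1.39-fold), knockout 1 (1.33-fold), knockout 4 (1.25-fold) and knockout 5 (1.24-fold). Knockout 3 was thus farthest from the controls and knockout 5 nearest for Stk11, Wfdc15b and Wfdc2. This order was noticed after the values were seen, and 5 kidneys are too few for a correlation here.

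**Figure D4:**
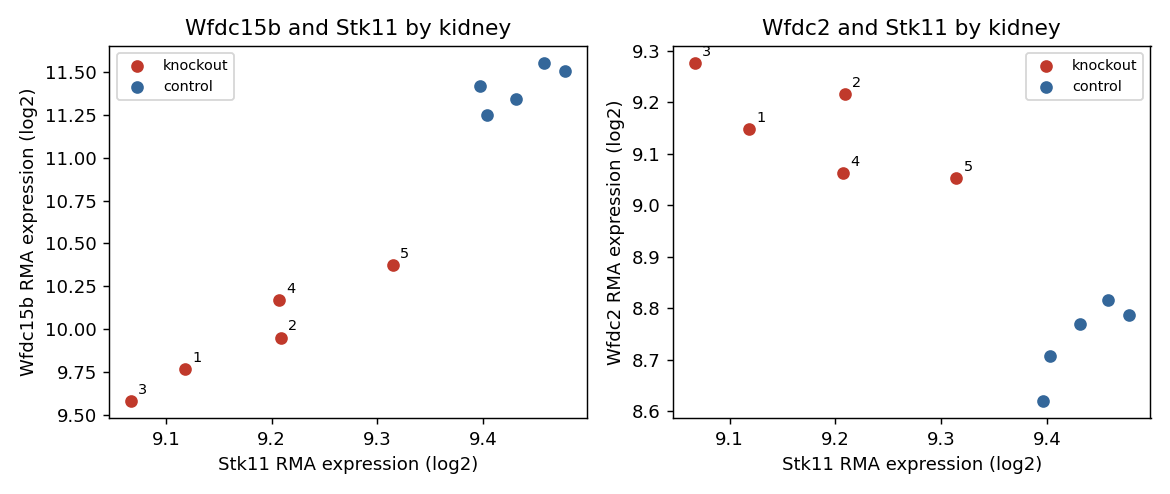
Log2 expression of Wfdc15b (left) and Wfdc2 (right) against that of Stk11, 1 point per kidney, with knockouts in red and numbered and controls in blue. Knockout 3, at 9.07 for Stk11, has the lowest Wfdc15b (9.58) and the highest Wfdc2 (9.28), and knockout 5 lies nearest the controls.

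Markers of several cell types moved with the groups and, in part, with this order. For the counts below, 5.23% of all genes were higher and 2.68% lower at an adjusted p under 0.05 by limma. Of 10 thick ascending limb markers, 8 were lower and 1, the claudin gene Cldn16 (0.45), was higher, and their mean log2 level was 9.78 to 10.02 in knockouts and 10.23 to 10.42 in controls. Egf, a growth factor precursor gene, was 0.513 of the control level (limma adjusted p = 1.08e-04) and the prostaglandin receptor gene Ptger3 0.551 (limma adjusted p = 3.84e-04). Of 12 intercalated cell markers, 10 were lower and 0 higher (8.07 to 8.47 in knockouts, 8.72 to 8.91 in controls), with the anion exchanger gene Slc26a4 at -1.13 and the water channel gene Aqp6 at -0.94 in log2 units. Set against the control mean, this list was at -0.73 in knockout 3 and -0.33 in knockout 5. The thick ascending limb list was likewise lowest in knockout 3 (-0.58) and highest, among knockouts, in knockout 5 (-0.35). Of 8 distal convoluted and connecting tubule markers, 5 were lower and 0 higher (9.86 to 10.09 in knockouts, 10.19 to 10.30 in controls), led by Pvalb (-0.65) and Calb1 (-0.54). That list was lowest in knockout 1 (-0.42), beside -0.39 in knockout 3 and -0.19 in knockout 5. Of 10 proximal tubule markers, 2 were lower and 0 higher (11.81 to 12.10 in knockouts, 12.09 to 12.15 in controls). They were the glucose transporter gene Slc5a2 (-0.46) and the endocytic receptor gene Lrp2 (-0.21), and the call of Slc5a2 was lost without knockout 1 or 2 (limma adjusted p = 0.0516 and 0.0520). The proximal tubule list, too, was lowest in knockout 3 (-0.29) and highest, among knockouts, in knockout 5 (-0.01). Of 11 principal cell markers, 2 were higher, the water channel genes Aqp2 (0.94) and Aqp3 (0.54), and 1, the sodium channel gene Scnn1a (-0.39), was lower (9.05 to 9.38 in knockouts, 9.01 to 9.29 in controls). That list did not follow the order, being highest in knockout 2 (0.22) and lowest, among knockouts, in knockout 5 (-0.12).

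Markers of phagocytes, fibroblasts and urothelium were mostly higher in the knockouts, where 5.23% of all genes were, and those of 3 other cell types outside the tubule did not pass. All 12 mononuclear phagocyte markers were higher (7.48 to 8.28 in knockouts, 6.77 to 7.03 in controls), led by Lyz2 (5.19-fold) and Mpeg1 (2.78-fold), and so were 9 of 11 fibroblast markers (8.72 to 9.43 in knockouts, 7.74 to 8.06 in controls), led by the matrix genes Dpt (5.30-fold) and Lum (2.88-fold). Of 10 urothelium markers 7 were higher and 0 lower (0.39 to 0.72 in knockouts and -0.38 to 0.37 in controls as list means against the control mean), led by the keratin gene Krt20 (2.66-fold) and the uroplakin gene Upk1b (2.63-fold). Set against the control mean, the phagocyte list was at 1.39 in knockout 3 and 0.58 in knockout 5, and the fibroblast list at 1.47 and 0.77. The fibroblast list was highest in knockout 2, however, at 1.48. The urothelium list did not follow this order, at 0.55 in knockout 3, 0.64 in knockout 5 and lowest in knockout 1 (0.39). None of 12 neutrophil, 8 mast cell and 7 B and plasma cell markers passed by limma, with 2, 1 and 1 higher and 0 lower without adjustment (p under 0.05), and 5, 6 and 2 of them had both group means below the negative control median. The part of these cells in the differences of Wfdc15b and Wfdc2 was not tested.

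**Figure D5:**
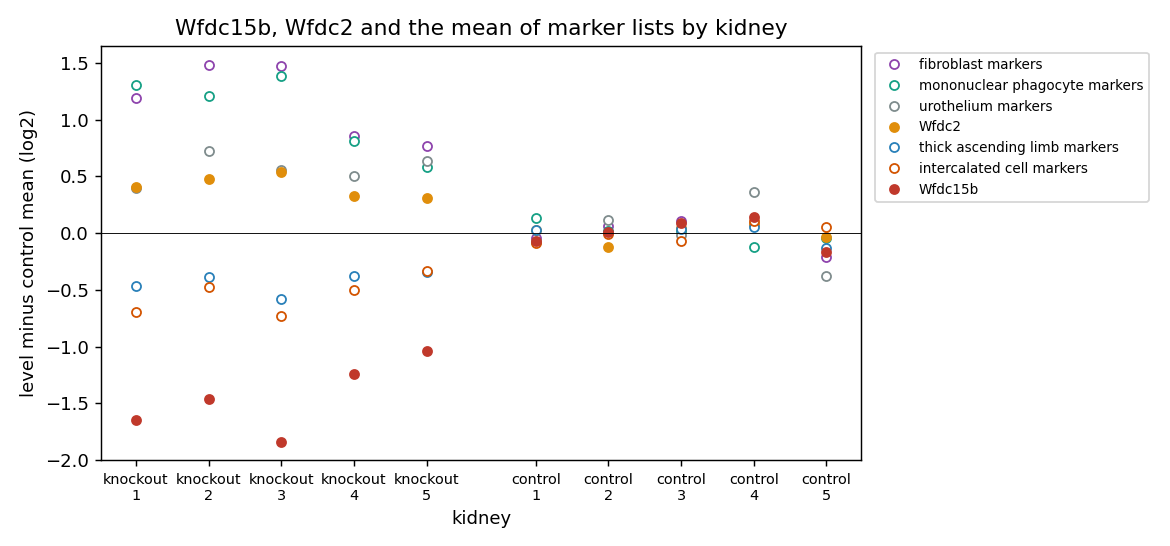
Levels of Wfdc15b and Wfdc2 (filled points) and the mean levels of 5 marker lists (open points) in each kidney, in log2 units against the control mean, with knockouts left of controls. Wfdc15b is lowest in knockout 3, at -1.84, where the intercalated cell list is also lowest (-0.73) and the phagocyte list is highest (1.39).

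Genes with a pattern like that of Wfdc15b were sought among 13867 other protein-coding genes above the negative control median, after each gene was centred on its control mean, by the root mean square difference over the 10 kidneys. The nearest were Malrd1 (0.262 log2 units), the leucine-rich repeat genes Lrrc31 (0.276) and Lrrc66 (0.284), Tldc2 (0.302) and the proprotein convertase gene Pcsk6 (0.303). All 5 were lower in the knockouts, with log2 differences from -1.17 to -1.10. The search picks genes close to Wfdc15b in each kidney, so this follows from the choice and nothing is read from it. Malrd1, Lrrc66 and Tldc2 had their lowest knockout value in knockout 3 and their highest in knockout 5, as Wfdc15b did, and Lrrc31 and Pcsk6 did not. The same search was made for Wfdc2 after its values were seen, since its values spanned only 0.66 log2 units. The nearest genes were Rasa3, a regulator of Ras GTPases (0.0467), the transcription factor gene Runx1 (0.0530), the NF-kappaB regulator gene Nfkbiz (0.0570), the adhesion molecule gene Sdk1 (0.0574) and the leukocyte integrin gene Itga4 (0.0596). All 5 had their highest knockout value in knockout 3, as Wfdc2 did. The search favours genes that share this, so nothing is read from it.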

How the data were processed

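The authors deposited 1 log2 value per array and transcript cluster, made with RMA on build mm10, per the submitters' processing notes. The log2 scale was read from the range of the values, and software versions are not stated. RMA corrects background, sets all arrays to a shared distribution and summarises probes along a transcript, so exons are averaged. Arrays carry no read depth, and the number of arrays limits the precision.

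Of 72688 rows, 31258 named 1 gene through the platform annotation (synonyms merged), 1492 several and 39938 none; only the first were used, averaged per gene. RefSeq coordinates and promoter sequences are from GRCm38.p6, and 5 of the 6 members had a promoter entry.

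Knockouts were compared with controls by limma 3.58.1 in R 4.3.3 (lmFit, eBayes with a mean-variance trend; two-sided; Benjamini-Hochberg over all genes; threshold 0.05; no covariate), tested on simulated data. Differences are knockout minus control. Negative control probe sets are the rows whose names carry the mark n. The members, lists and rules were chosen with earlier results of these data known. Named genes are the members, Stk11, Cdh16, the largest calls of each list (up to 4 per inhibitor or protease list, up to 2 per marker list), calls in the chromosome 2 window, and the 5 genes nearest in pattern to a member spanning at least 1 log2 unit; Gm11456, Svs2, Sdc4, Ube2c, Spint1, Spint2, Elane, Ctsg, Cldn16, Scnn1a, Prss8, Prss22, Prss35 and the Wfdc2 search were added or singled out after values were seen. Nothing says that a replicate number marks a shared litter or batch. Alternatives were another prior variance, 2 scalings, a dim filter, 2 row rules, array weights, a replicate block and leaving out each kidney.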

Additional observations from a re-analysis of the deposited data

Results flagged for a closer look

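In 2 of 78 groups of 5 kidneys, over 39 genes, 1 kidney stood apart from the other 4 by more than the 95% limit of Dixon's test, where chance gives about 1 group in 20. Aqp6 was at 7.23 in knockout 3, below the next lowest knockout at 7.70. Pcsk6 was at 7.88 in control 5, below the next lowest control at 8.17. No group of Wfdc15b, Wfdc2, Wfdc1, Wfdc3, Wfdc15a or Stk11 was among them.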

How the results depend on the processing

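The differences of the measured WAP-domain genes moved by less than 1 residual SD under every alternative that could be run (18 for Wfdc15b, Wfdc2 and Wfdc1, and 17 for Wfdc3 and Wfdc15a, which the filter on dim genes removed). Wfdc15b ranged from -1.55 to -1.35 and Wfdc2 from 0.38 to 0.44, and both passed the threshold in all 18. Both were chosen on this contrast in the same arrays, so these passes describe the fits and are not a test of the genes. Stk11 ranged from -0.28 to -0.22 (limma adjusted p from 0.00158 to 0.0321). With the replicate number as a block, Wfdc15b and Wfdc2 stayed at -1.45 and 0.41 and 2795 genes passed in place of 2427. Deviations of same-numbered kidneys correlated at 0.25, 0.32, 0.10, -0.08 and 0.19 for numbers 1 to 5. Since 4 of 5 pairs were above 0.1 and pair 4 was not, and no label ties a number to a litter or day, the numbers were not taken as pairs. As a hint from the data, not the design, 4 of 5 knockouts (not knockout 4) correlated best with the control of their own number.

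Leaving out 1 kidney gave 1528 to 3410 calls over all genes, with 1528 without knockout 2, 1597 without knockout 3 and 1602 without control 3. It gave 0 to 1 calls among the other WAP-domain genes, 1 to 3 among the Kunitz and Kazal genes and 0 to 3 among the serine proteases. The filter on dim genes left 9 other WAP-domain genes, of which 0 passed by limma and 0 had an unadjusted p under 0.05, since it removed Wfdc17.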
